A study of Mus musculus with 14 samples.

Results

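Trimethylation of lysine 27 on histone H3 (H3K27me3) is written by Polycomb repressive complex 2 (PRC2) and marks silent chromatin, often at CpG-rich promoters of developmental genes and at genes of other lineages. Phf19 is a Polycomb-like protein that binds PRC2 and takes part in bringing it to chromatin. In haematopoietic stem cells (HSCs) the mark is known to lie over genes that are kept off until differentiation. Regions found in every library of a study rest on a call in each list, so their number is bounded by the shortest list. They also collect loci that are called in any library for reasons of sequence, such as repeats that an assembly holds in too few copies.

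The regions described here are those present in all 4 deposited H3K27me3 lists. The lists come from chromatin immunoprecipitation with sequencing of mouse bone marrow HSCs, depleted of lineage-positive cells and labelled CD150+. There were 2 control libraries of the floxed genotype (FF) and 2 libraries labelled PHF19 KO, while strain, age, sex, the Cre that made the deletion and the number of animals behind a library are not stated in the sources. An antibody against H3K27me3 (Active Motif, rabbit polyclonal) was used for all 4, with a kit for low cell input. Regions of the 19 autosomes were merged wherever they overlapped or touched. This gave 9067 merged regions, of which 485 (5.35%) overlapped a region of every list by at least 1 bp and are called shared regions below. Members were thus chosen by presence in the lists, which width and score both bear on, so widths, scores and spacing are given as description. Coordinates are 1-based on mm9. No annotation or sequence of that build was used here, so the regions carry positions and no gene names, and their bases are not printed.

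The shared regions were limited by the shortest list. The autosomal lists held 4038 regions in control 1, 891 in control 2, 5922 in KO 1 and 4414 in KO 2, and the shared regions took up 12.0%, 54.7%, 8.22% and 11.1% of them. Of 1503 regions found in exactly 3 lists, 1319 were missed by control 2, 72 by control 1, 69 by KO 2 and 43 by KO 1. Without control 2 the other 3 lists shared 1804 regions, and without any 1 of the other lists the number was 528 to 557. Read depth behind the lists is unknown, so for a region absent from control 2 depth and the mark cannot be told apart. The file headers name the replicate 1 lists in one style and the replicate 2 lists in another, which follows the replicate number in both genotypes. The labels do not tie replicates to separate animals, and a p-value here reflects the spread between 4 libraries, part of which may be technical.

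A shared region was a few kilobases wide and was nearly always 1 unbroken call. The merged width was 513 bp at the lowest, 3948 bp at the median and 7235 bp at the highest, against a median of 1354 bp for all 9067 merged regions. Medians rose with the number of lists, from 700 bp for regions of 1 list to 2456.5 bp for 2 lists and 3441 bp for 3 lists, an order that merging itself favours. In 479 of 485 shared regions every list held a single piece, and in the other 6 at least 1 list held more. Together the shared regions spanned 1.89 Mb, of which 0.663 Mb was covered in all 4 lists at once. This common core had a median of 1313 bp, or 35.9% of the merged width, and reached 1000 bp in 339 regions. In a typical shared region most of the merged span was thus called in some lists and not in others.

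Called width within the same regions differed more by replicate number than by genotype. The median called width was 3236 bp in control 1, 1632 bp in control 2, 3355 bp in KO 1 and 1855 bp in KO 2. Both replicate 1 lists were thus wide and both replicate 2 lists narrow, and the control and KO values overlapped. Replicate 1 was wider than replicate 2 in 440 regions (90.7%) among the controls and in 434 (89.5%) among the KO libraries. The ratios of median width were 1.98 and 1.81. For these 2 counts the matching shares over all merged regions are not given here. Both replicate 1 lists were wider than both replicate 2 lists in 390 shared regions (80.4%). Over all 9067 merged regions that share was 28.5%, counting a list without the region as 0 bp, and the shared regions are by their rule absent from none, which bears on this comparison.

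Between genotypes the widths differed by less than the replicates did. Median called width was 2605 ± 1061 bp in KO and 2434 ± 1134 bp in control libraries (SD, n = 2 each), a ratio of 1.07 with a two-sided exact permutation p = 0.667, where 2 against 2 libraries cannot go below 0.33. The summed called length within shared regions was 1.59 Mb and 0.861 Mb in controls 1 and 2, and 1.66 Mb and 0.975 Mb in KO 1 and KO 2. The KO to control ratio of this length was 1.08 (exact permutation p = 0.667, 2 libraries each). Within a naming style, the KO to control ratio of median width was 1.04 in replicate 1 and 1.14 in replicate 2. KO was the wider in 276 (56.9%) and 280 (57.7%) of the 485 regions. The matching shares over all merged regions are not given here, and each KO list held more regions than the control list of its number. The ratio turned to 0.787 without control 2 and to 0.767 without KO 1, and was 1.58 without control 1, so its direction depended on leaving the wide and narrow lists balanced between genotypes. The number of pieces per shared region was 1.002 ± 0.003 in control and 1.005 ± 0.001 in KO libraries (exact permutation p = 0.667, n = 2 each).

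**Figure D1:**
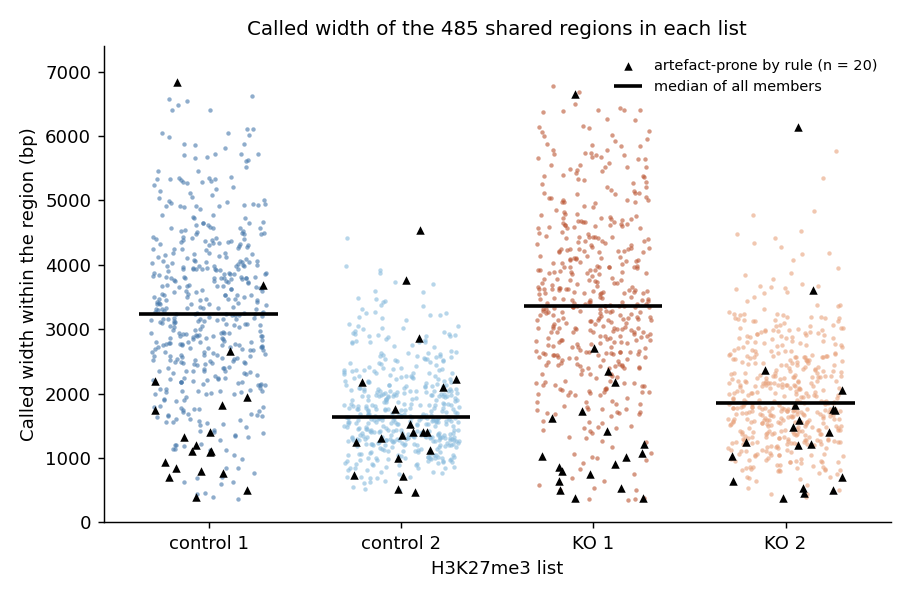
Called width in bp (vertical axis) of the 485 shared regions in each of the 4 lists, 1 point per region, with the median as a bar. Medians of 3236 and 3355 bp in control 1 and KO 1 lie above those of 1632 and 1855 bp in control 2 and KO 2, and the 20 artefact-prone regions (triangles) do not share this shift.

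Single regions without overlap between genotypes were few. Both KO lists were wider than both control lists in 30 shared regions (6.19%), against 6.61% of all merged regions. That background counts a list without the region as 0 bp. A region present in both KO lists and absent from both control lists is thus counted, and no shared region can be of that kind. Both control lists were wider in 21 shared regions (4.33%), against 0.585% of all merged regions. The same construction affects both backgrounds. Neither the near match of the first shares nor the gap between the second can be read as a result. Of those 21, 6 were artefact-prone by the rule given below, a class of 20 regions. The following examples were chosen after their values were seen, from those with the longest cores. Of the regions wider in KO, the longest core lay on chromosome 17 from 56648389 to 56652938. Called widths there were 3940 and 3226 bp in controls 1 and 2, and 4472 and 4162 bp in KO 1 and KO 2, a small gap. Second by core, chromosome 6 from 113838179 to 113843942 had 2614 and 2745 bp in controls 1 and 2. In KO 1 and KO 2 it had 3019 and 5764 bp, with scores of 50.2 and 50, at or near the lowest score of these lists. Of the regions wider in the controls, the longest core lay on chromosome 9 from 123842715 to 123845062, where widths were 2315 and 2345 bp in controls 1 and 2 and 2116 and 2198 bp in KO 1 and KO 2, again close together. The next, on chromosome 4 from 49855622 to 49859368, had 3623 and 2807 bp in controls 1 and 2 and 2446 and 2070 bp in KO 1 and KO 2, a wider gap. Its scores were 54.3, 53.8 and 57.0 in control 1, control 2 and KO 1, near the lowest score of 50 in these lists, and 110.3 in KO 2.

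The 5 widest shared regions show how the merged span was put together. The region on chromosome 10 from 79816050 to 79823284 was called over 5717 and 2913 bp in controls 1 and 2 and over 6144 and 2891 bp in KO 1 and KO 2, with a core of 2275 bp. On chromosome 11 from 102004256 to 102011423, calls ran over 6404 and 3490 bp in the controls and 5473 and 4526 bp in the KO libraries. Here the core of 3490 bp equals the control 2 call, which lay wholly inside the other 3. The same nesting held on chromosome 4 from 151685212 to 151692063, where the control 2 call of 1569 bp was the core and the other calls spanned 5351 to 6540 bp. On chromosome 2 from 164773053 to 164779911, control 1 and KO 1 were called over 6629 and 6504 bp, and control 2 and KO 2 over 1353 and 3062 bp, again a split by replicate number. The remaining wide region, on chromosome 17 from 39979469 to 39986636, is artefact-prone and is described with that class.

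Narrow calls lay inside wide ones across the shared regions as a whole. Over the 479 regions with 1 piece in every list, 95.6% of the bases called in control 2 were also called in control 1, while 51.9% of those in control 1 were called in control 2. For KO 2 and KO 1 the shares were 95.4% and 56.0%. The replicate 1 lists covered each other more evenly, with 87.5% of control 1 bases in KO 1 and 83.7% of KO 1 bases in control 1. The core made up 77.0% of the called bases in control 2 and 68.0% in KO 2, against 41.8% in control 1 and 39.9% in KO 1. The outer edge of the merged region was set mainly by the replicate 1 lists, the left edge in 183 regions by control 1 and in 233 by KO 1, compared with 36 by control 2 and 38 by KO 2. Centres of the calls lay close together in every pair of lists, with median distances of 261 to 333.5 bp.

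The likeness of pairs of lists within the shared regions had the same order. The Jaccard index of called bases (bases called in both lists over bases called in either) was 0.748 for control 1 with KO 1 and 0.604 for control 2 with KO 2. Pairs that cross the replicate numbers had 0.565 for control 1 with KO 2, 0.545 for both KO lists, 0.507 for both control lists and 0.478 for control 2 with KO 1. Spearman's rho of called width over the 485 regions was 0.740 for control 1 with KO 1 and 0.409 to 0.573 for the other pairs. For the score that the authors' caller gave, rho was 0.585 for control 1 with KO 1 and 0.237 to 0.300 for the other 5 pairs. Without the 20 artefact-prone regions these values were 0.569 and 0.203 to 0.253. The points of these correlations are regions of the same libraries, so they describe the lists and carry no test. Control 1 and KO 1 thus stood closest in called bases, width and score order. The replicate 2 lists stood next in called bases and in the distance between centres, but not in width or score order. Unequal called lengths limit the Jaccard index, so its order in part restates the widths. Median distances between centres were 261 bp for control 1 with KO 1 and 266.5 bp for control 2 with KO 2. They were 272 bp for control 1 with KO 2 and 306 to 333.5 bp for the remaining pairs.

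**Figure D2:**
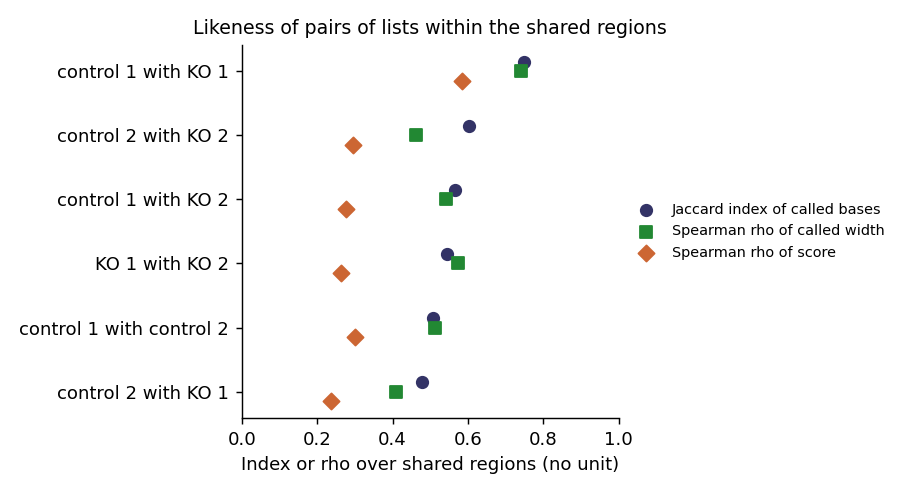
Jaccard index of called bases (circles, 479 regions), Spearman's rho of called width (squares) and of score (diamonds, 485 regions each) for the 6 pairs of lists, on an axis from 0 to 1. Control 1 with KO 1 is highest in all 3 measures, at 0.748, 0.740 and 0.585.

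Score ranks within each list show where the shared regions stood among all regions of that library. A score percentile is the share of a list's autosomal regions with a score at or below that of the shared region. The score is the authors' own, its lowest value is 50 in every list, and it is compared within a list only. The median percentile was 81.4 in control 1, 60.2 in control 2, 83.0 in KO 1 and 81.1 in KO 2. In the top 10% of a list by score were 153 shared regions (31.5%) for control 1, where the background of all its regions is 10%. The shares were 35.5% for KO 1 and 31.1% for KO 2, each against a background of 10%, and 12.4% for control 2 against 10.1%. Control 2 differs by construction, since more than every other region of that list is itself a shared region. All the same, shared regions were found at every rank: 87 scored below the median of control 1, 191 below that of control 2, 58 below that of KO 1 and 61 below that of KO 2. In every list at once, 219 lay at or above the 50th percentile and 5 below it.

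**Figure D3:**
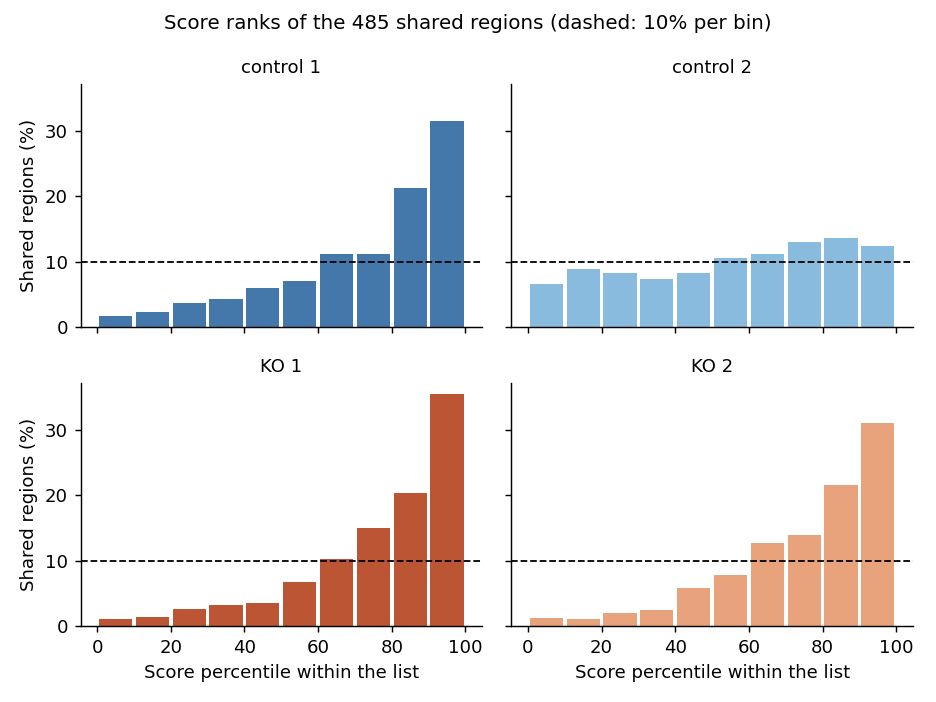
Share of the 485 shared regions (vertical axis, %) in each 10-point bin of score percentile, for the 4 lists, with a dashed line at the 10% that all regions of a list give. The top bin holds 31.5%, 12.4%, 35.5% and 31.1% of the shared regions in control 1, control 2, KO 1 and KO 2.

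Rank went up with the number of lists that held a region. In control 1, the median percentile was 19.7 for regions of that list alone, 49.9 for regions of 2 lists, 63.4 for regions of 3 and 81.4 for shared regions. The same order held in KO 1, at 27.1, 57.8, 74.7 and 83.0, and in KO 2, at 27.4, 57.3, 66.5 and 81.1. In control 2 the values were 26.3, 47.9, 44.2 and 60.2, with regions of 3 lists below those of 2. The nearest class is the 1319 regions that only control 2 missed. Their median percentiles were 64.1 in control 1, 75.6 in KO 1 and 65.4 in KO 2, all below the shared regions, and their median called widths of 2888, 2929 and 1518 bp were also below the 3236, 3355 and 1855 bp of the shared regions. Higher score did not go with greater width in all lists, since rho over the shared regions was -0.12 in control 1 and -0.21 in KO 1 but 0.18 in control 2 and 0.19 in KO 2.

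Loci prone to artefacts were picked out by a rule that uses score, position and width. It took regions among the 5 highest scores of at least 2 lists (5 regions), regions that start within 500 kb of position 3 Mb, where assembled mouse chromosomes begin (11 regions), and regions narrower than 3001 bp (the lower quartile) that scored over 5 times the median in at least 3 lists (8 regions). This gave 20 regions, or 4.12% of the shared ones, 4 of them by more than 1 part. Pericentromeric satellite repeats, ribosomal DNA and nuclear copies of mitochondrial DNA are known to collect excess reads in mouse assemblies of this age, and control or input libraries that would measure this were not analysed here. Whether such sequence underlies these 20 regions was not tested.

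Since score is part of the rule, the high rank of these regions is a description and no finding. Of the 10 highest-scoring regions of a list, 8 in control 1, 9 in control 2, 8 in KO 1 and 10 in KO 2 belonged to these 20. The region on chromosome 2 from 98506243 to 98507662 scored 1885 and 2147 in controls 1 and 2 and 1443 and 2217 in KO 1 and KO 2, ranking first or second in every list. On chromosome 9, the region from 35112301 to 35113472 scored 1607, 2446, 462 and 2290 in control 1, control 2, KO 1 and KO 2, and only in KO 1 was it outside the first 2 ranks. Scores on chromosome 15 from 74915526 to 74917628 were 527, 1955, 486 and 1263 in the same order. Longest of the class is chromosome 17 from 39979469 to 39986636, which scored 429, 1870, 591 and 1990. A further one, on chromosome 3 from 5860243 to 5860975, is 733 bp wide and scored 523, 921, 482 and 1232. Among the 465 other shared regions the highest score was 548 in control 1, 743 in control 2, 324 in KO 1 and 603 in KO 2.

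A tandem of such regions opens chromosome 9. In 37.2 kb from 2999851 to 3037068 lie 5 shared regions, the largest group found, and 10 merged regions in all. Their scores spanned percentiles of 22.1 to 99.8 in control 1, 91.8 to 99.3 in control 2, 40.6 to 88.3 in KO 1 and 86.5 to 99.8 in KO 2, so they ranked high in both replicate 2 lists and varied in the replicate 1 lists. The outermost on the left, from 2999851 to 3001613, was called over 1746, 1763, 801 and 1763 bp in control 1, control 2, KO 1 and KO 2. Other regions near position 3 Mb lay on chromosome 6 (3151325 to 3151837), chromosome 7 (3330794 to 3334478), chromosome 12 (3109510 to 3110431), chromosome 13 (3356976 to 3359665 and 3371877 to 3373358) and chromosome 18. All 11 regions near position 3 Mb met the rule by position alone. The one on chromosome 7 scored 88.2, 72.2, 51.4 and 80.2 in control 1, control 2, KO 1 and KO 2, close to ordinary members. On chromosome 13 the region from 3356976 to 3359665 scored 64.6, 56.8, 127.8 and 66.5, at percentiles of 33.0, 33.2, 83.8 and 45.2. The class was completed by regions on chromosome 2 (98501997 to 98503305), chromosome 5 (147072065 to 147073426), chromosome 9 (123832274 to 123834539) and chromosome 11 (108872466 to 108873872).

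These 20 regions also differed in shape from the other 465. Their median merged width was 1451 bp against 3977 bp, a property the rule in part selects, and their core took 57.8% of the merged width against 35.4%. The wider calls of replicate 1 were not seen in them, and in part the order was the reverse. The median ratio of control 1 to control 2 width was 0.811 and of KO 1 to KO 2 width 0.999. In the other regions these ratios were 1.87 and 1.74. Median called widths of the 20 were 1153 and 1402 bp in controls 1 and 2, and 1025.5 and 1322 bp in KO 1 and KO 2. Both replicate 1 lists were wider than both replicate 2 lists in 2 of the 20, and the reverse held in 8. Over all 485 shared regions these shares were 80.4% and 3.30% (16 regions). Over all merged regions they were 28.5% and 1.08%, counting a list without the region as 0 bp. The called edges lay closer together across the 4 libraries. Merged width, which the rule in part selects, limits how far called edges and widths can differ. No comparison at equal width was made, so these differences are description. The larger of the ranges of left and right edge was 344 bp at the median, against 1616 bp in the others. On chromosome 2 from 98506243 to 98507662 the 4 left edges lay within 3 bp and the 4 right edges within 22 bp, the closest match of all shared regions.

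**Figure D4:**
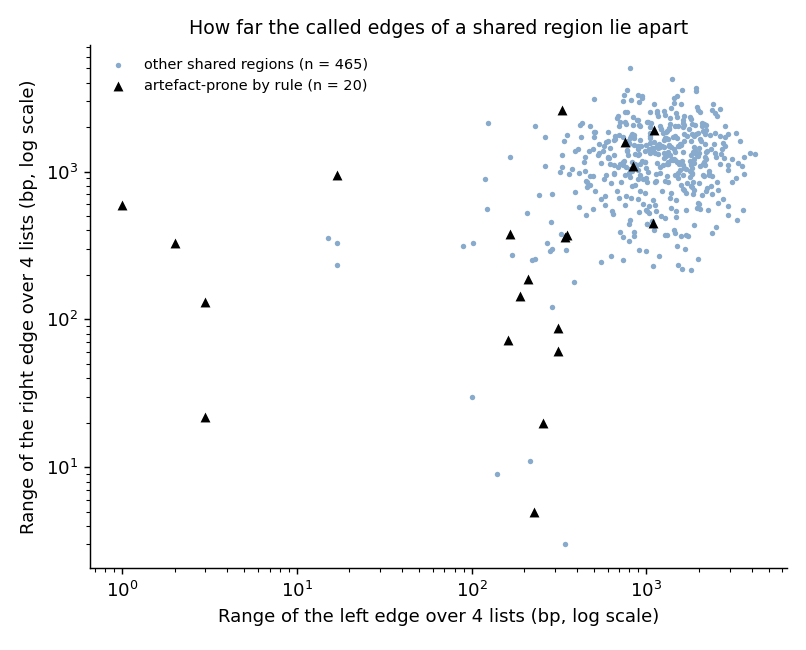
Range over the 4 lists of the left edge (horizontal axis, bp) and right edge (vertical axis, bp) of each shared region, both on log scales. Most of the 465 other regions (circles) lie to the upper right, with medians of 1187 and 1221 bp, while the 20 artefact-prone regions (triangles) have medians of 242.5 and 344 bp.

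Some shared regions outside the rule had edges as close together in bp, though the narrow ones among them leave little room for more. One on chromosome 4 from 70038960 to 70039714 is 755 bp wide, with an edge range of 315 bp and a core of 46.5% of its width. Chosen after their values were seen, 15 of the 465 others (3.23%) had both edges within 344 bp over the 4 lists, with a median merged width of 1139 bp. Among them is a pair on chromosome 11, from 88828984 to 88831031 and from 88831110 to 88832379, parted by 78 bp. The first scored 548, 428, 260 and 160 in control 1, control 2, KO 1 and KO 2, and its called widths of 2046, 1989, 2035 and 1918 bp differed little between lists. The second had left edges within 17 bp of each other in the 4 lists. On chromosome 9 the region from 123842715 to 123845062 lies 8175 bp from an artefact-prone one, scored 238, 270, 181 and 177, and had left edges within 17 bp. The region on chromosome 4 named first scored 304, 743, 90.4 and 603, which is over 5 times the median of the list in control 2 and KO 2 alone. The repeat content of these regions was not tested.

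Shared regions of high rank in every list were also found outside both kinds. Of 21 regions in the top 10% of all 4 lists, 10 were artefact-prone. Next to those named above, and chosen after their values were seen, stood 3 regions with staggered edges, of which 1 was below and 2 were above the median merged width of 3948 bp. One on chromosome 3 from 88894322 to 88897664 scored 206 and 157 in controls 1 and 2 and 246 and 165 in KO 1 and KO 2. Its counterpart on chromosome 14 from 55192163 to 55197402 scored 277 and 133 in the controls and 192 and 174 in the KO libraries. The last, on chromosome 2 from 25431633 to 25437589, scored 241 and 138 in the controls and 167 and 188 in the KO libraries, over a core of 3505 bp, the longest core outside the artefact-prone class. In each of them the score percentile was at least 93.9 in every list.

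At the other end, 5 shared regions scored below the median of every list. Lowest was a region at 20437122 to 20438526 of chromosome 7, which scored 66.4, 52.5, 56.0 and 58.4 in control 1, control 2, KO 1 and KO 2. It was called over 592 to 827 bp, and its highest percentile in any list was 35.4. On chromosome 1 the region from 166386075 to 166388545 scored 72.9, 55.2, 68.5 and 56.5, with a highest percentile of 44.2. The wide region on chromosome 4 from 151685212 to 151692063, described above, also belonged here, with scores of 70.0, 50.4, 68.0 and 62.7. The remaining ones lay on chromosome 18 and had highest percentiles of 42.1 and 46.2.

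Measured by common bases and gaps, the edge of the membership rule was thinly populated. By presence it was not, since 1319 regions were missed by control 2 alone. With each list asked to cover at least 25% of the merged region, 445 shared regions remained. In 4 shared regions no base was covered in all 4 lists, because separate calls were chained by a longer one. On chromosome 4 from 98393056 to 98396056, for example, control 1 and KO 1 were called over 2645 and 2717 bp and control 2 and KO 2 over 1039 and 882 bp, with no common base. The others were on chromosome 12 from 33829942 to 33832567, chromosome 15 from 79090147 to 79094543 and chromosome 19 from 58933755 to 58936369. Just outside, 3 of the 1503 regions of exactly 3 lists had a region of the fourth list within 1000 bp. On chromosome 19 from 7004433 to 7011156 a control 1 region lay 296 bp away. On chromosome 9 from 3022863 to 3023769, within the tandem at the start of that chromosome, a control 2 region lay 443 bp away, and from 123840791 to 123842095 a control 1 region lay 636 bp away.

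Shared regions were spread over all autosomes, with differences in density between them. There were 1.97 shared regions per 10 Mb, with the highest region end taken as the length of a chromosome. Chromosome 11 was densest, with 46 regions or 3.78 per 10 Mb, followed by chromosome 4 with 50 (3.21) and chromosome 7 with 46 (3.02). Chromosomes 14 and 16 were sparsest, with 11 (0.879) and 9 (0.917). In regions of any list chromosome 11 was also densest, at 60.4 per 10 Mb, and chromosomes 16 and 14 were among the sparsest, at 24.5 and 26.6. Chromosome 4, at 41.7, was below chromosomes 2, 7, 9 and 17 in that measure, at 42.7 to 45.9. As a share of the merged regions, shared ones were most common on chromosome 4, at 7.70% (50 of 649), and chromosome 7, at 6.91% (46 of 666), and least common on chromosome 14, at 3.30% (11 of 333). Along chromosomes cut into 5 equal parts, 28.0% lay in the part farthest from the first base and 14.0% in the part nearest to it. For all merged regions these shares were 28.4% and 13.6%, so both sets were spread alike along the chromosomes.

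**Figure D5:**
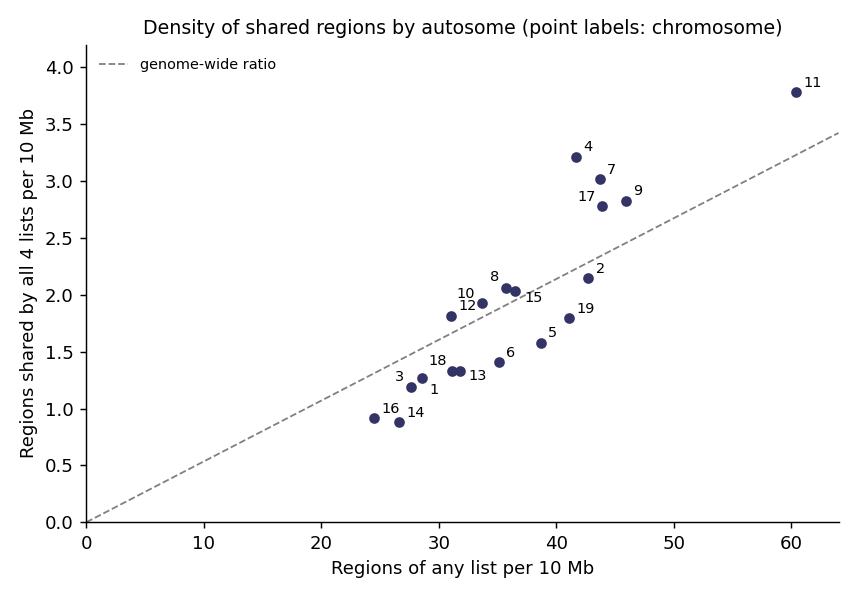
Shared regions per 10 Mb (vertical axis) against regions of any list per 10 Mb (horizontal axis), 1 labelled point per autosome, with the ratio over all autosomes as a dashed line. Chromosomes 4 and 7, at 3.21 and 3.02 shared regions, lie above the line, and chromosomes 14 and 16, at 0.879 and 0.917, below it.

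Most shared regions had no other shared region within 100 kb, while most had a region of some list that near. The set holds 1.97 regions per 10 Mb, and the spacing that this density alone would give was not computed. The distances therefore do not tell whether shared regions lie closer together or farther apart than their density implies. The nearest other shared region was 806 kb away at the median, and 404 of 485 had none within 100 kb. The other 81 formed 37 groups, of which 33 were pairs. Another region of any list lay within 10 kb of 18.6% of shared regions, against 14.9% of all merged regions and 12.7% of those missed by control 2 alone. Within 100 kb these shares were 76.1%, 70.1% and 67.6%. Apart from the tandem on chromosome 9, the largest group had 4 members in 174 kb of chromosome 7 (52953582 to 53127362). Their called widths were 2538 to 5179 bp in control 1 and 1021 to 3261 bp in control 2, and 3016 to 5660 bp in KO 1 and 1782 to 4183 bp in KO 2. Groups of 3 lay on chromosome 4 in 68.4 kb (151646709 to 151715145) and in 124 kb (133804969 to 133928748). In the second of these, the region from 133925846 to 133928748 stood at score percentiles of 99.6 in control 1 and 99.8 in KO 1, and of 66.9 in control 2 and 48.7 in KO 2. It thus ranked near the top of both replicate 1 lists and lower in both replicate 2 lists.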

How the data were processed

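H3K27me3 regions were deposited by the authors as 1 list per library, with a score per region that is used here only to describe or rank regions within a list. Region names and track lines show MACS, per the file headers, and the submitters' processing notes list Bowtie and TopHat, and mm9 next to dm3, without saying what each was used for. The version and threshold of the caller, and any control library, are not stated there, and read depth is unknown, so no interval from counting could be set.

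Lists were merged in Python 3.11.15 with pandas 2.3.3 and compared with scipy 1.17.1, using two-sided exact permutation tests over libraries. The merge and the test were tested on simulated lists. Called width is the length of a list's pieces within a merged region, and groups join neighbours within 100 kb. Regions named are the 5 widest, the 5 of highest and the 5 of lowest rank in all lists, the largest groups, the artefact-prone ones and those at the edge of the rule, and others where stated. The members, lists and rules were chosen with earlier results of these data known. Chromosomes X, Y and M were left out, and 3 more regions on X and Y were in all 4 lists. The single-cell tables, bulk RNA and accessibility samples were not used here. Sequence and genes were not added, because the tables at hand are of another build. Alternatives were other merges, overlaps, thresholds and list lengths, and each list left out.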

Additional observations from a re-analysis of the deposited data

How the results depend on the processing

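The 6 main results were recomputed in 83 alternatives, of which 72 did not reverse (ratios, 2 of them at exactly 1), stayed within 1.5 times (counts) or moved by less than the SD between replicates (median width). The number of shared regions was 218 with the lower-scoring part of each list (below its median) left out and 111 with every list cut to the length of the shortest, and groups numbered 9 and 4 there, with a pieces ratio of exactly 1 in both. Joining neighbours within 500 kb gave 82 groups. Without 1 list at a time the shared regions numbered 528 to 1804 and the groups 41 to 225, since fewer lists are asked for, and both highest values are those without control 2. The KO to control ratio of called width was 0.767 to 1.58 and that of covered length 0.798 to 1.48. They reversed without control 2 (0.787 and 0.798) and without KO 1 (0.767 and 0.806), where the wide and narrow lists are no longer balanced between genotypes. With the replicate number as a block the ratios of width, covered length and pieces were 1.09, 1.09 and 1.003. Over the 485 regions, the log2 width differences of replicate 1 from replicate 2 correlated at r = 0.426 between genotypes, but 2 pairs do not show that the numbers pair the samples. The score correlations without artefact-prone loci were added after seeing the data. Read depth, which bounds what a list can hold, is unknown.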
